A study of Mus musculus with 6 samples.

Results

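Keratin-associated proteins were examined in the skin of C3H/HeJ mice, an inbred strain in which alopecia areata, an autoimmune hair loss, can arise spontaneously. Of 18194 genes measured, 38 had a platform symbol starting with Krtap as the only symbol of at least 1 probe set, and all 38 are described here. They comprised 10 genes of the high sulphur class, 12 of the ultrahigh sulphur class and 13 of the high glycine-tyrosine class, assigned by subfamily number. Another 3 were not classified: Krtap28-13 and Krtap31-1, whose numbers lie outside those series, and Krtap16-3, which lies among the high glycine-tyrosine genes in the RefSeq annotation although it shares its number with the distant Krtap16-1. The alopecic group held affected skin from 3 animals of this strain that had the disease, and the comparison group held skin from 3 animals labelled unaffected, with 1 array each. The sources used here give no treatment, age, sex, body site or stage of the hair cycle.

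Keratin-associated proteins form the matrix in which the keratin filaments of the hair shaft are embedded, and they are crosslinked to those filaments and to each other. The sulphur-rich proteins carry many cysteines, which form disulphide bonds, and the glycine-tyrosine proteins are small and rich in those residues. Their genes are transcribed late in the differentiation of the cortex and cuticle of the shaft, in follicles that are growing a hair, and are nearly silent in resting follicles.

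The promoters show what these short genes share apart from their protein products. RefSeq promoters of GRCm38.p6, each running from 250 bases before to 50 bases after the gene start, were found for 36 of the 38 genes; Krtap7-1 and Krtap12-1 had none in the table used. The TATA motif TATAAA was present on the gene's strand in 29 of these 36 (80.6%), against 8.32% of all 32851 promoters of the table. On either strand the shares were 80.6% and 13.6%. In 21 of the 36 (58.3%) the motif began between 40 and 20 bases before the start, where 1.99% of all promoters had it. CTTTG, the core bound by Lef1 and related factors, was found on either strand in 25 of 36 (69.4%) and in 53.9% of all promoters, and CCAAT in 10 (27.8%) and 37.4%. On the gene's strand alone CTTTG was found in 12 (33.3%) and in 32.4% of all promoters, and CCAAT in 5 (13.9%) and 21.1%. Matches to different motifs can share at most a single end base. A match is a description of letters, not of a bound site.

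The 70 bases before the start are shown for the first gene of the glycine-tyrosine class by mean signal (Krtap8-1), for the corresponding high sulphur gene (Krtap11-1), for 4 genes that passed the test without 1 unaffected array (Krtap17-1, Krtap28-13, Krtap5-5 and Krtap10-4), for 3 whose alopecic arrays were far apart (Krtap4-1, Krtap6-3 and Krtap21-1) and for 1 without the motif (Krtap14). Capitals mark TATAAA.
Krtap8-1, chr16:89487953-89488022, minus strand: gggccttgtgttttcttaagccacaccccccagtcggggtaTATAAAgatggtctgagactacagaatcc
Krtap11-1, chr16:89571184-89571253, minus strand: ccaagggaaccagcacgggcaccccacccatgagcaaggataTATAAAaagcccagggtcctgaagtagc
Krtap17-1, chr11:99993995-99994064, minus strand: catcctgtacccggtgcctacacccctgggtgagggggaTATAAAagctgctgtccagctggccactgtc
Krtap28-13, chr1:83060860-83060929, plus strand: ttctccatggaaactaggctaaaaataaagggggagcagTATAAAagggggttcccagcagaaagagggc
Krtap5-5, chr7:142229972-142230041, minus strand: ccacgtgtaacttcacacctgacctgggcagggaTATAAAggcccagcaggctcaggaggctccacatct
Krtap10-4, chr10:77827071-77827140, minus strand: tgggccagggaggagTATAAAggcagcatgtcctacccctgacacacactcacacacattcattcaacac
Krtap4-1, chr11:99628240-99628309, minus strand: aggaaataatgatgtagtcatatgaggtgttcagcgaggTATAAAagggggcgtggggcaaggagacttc
Krtap6-3, chr16:89083954-89084023, plus strand: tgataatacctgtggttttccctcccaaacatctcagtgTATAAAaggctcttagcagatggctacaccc
Krtap21-1, chr16:89403775-89403844, minus strand: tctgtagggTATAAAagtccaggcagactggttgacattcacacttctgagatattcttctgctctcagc
Krtap14, chr16:88826146-88826215, minus strand: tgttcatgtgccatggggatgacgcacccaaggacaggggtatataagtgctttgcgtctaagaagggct
Counted from the start, the motif began at position -31 in Krtap17-1, Krtap28-13, Krtap4-1 and Krtap6-3. It began at -29 in Krtap8-1, -28 in Krtap11-1, -36 in Krtap5-5, -55 in Krtap10-4 and -61 in Krtap21-1. Both genes with close and genes with distant alopecic values held it.

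One unaffected array stood apart and has to be named before the comparison. The median log2 value over the 38 genes was 11.08, 8.90 and 10.08 on alopecic replicates 1, 2 and 3 and 12.40, 13.82 and 4.96 on unaffected replicates 1, 2 and 3. Unaffected replicate 3 was the lowest of the 6 arrays for 37 of 38 genes, an order found for 29.1% of all genes, the exception being Krtap5-3. On that array 32 of the 38 lay below the array's own median of 6.15 over all probe sets, a range in which RMA compresses differences, so that folds against it are not exact ratios. The mean of unaffected replicates 1 and 2 exceeded unaffected replicate 3 by a median of 7.85, or 231-fold, with a range from 0.87 for Krtap13 to 9.42 for Krtap7-1. Over all genes the median of that difference was 0.01. The 50 genes with the largest standard deviation (SD) over the unaffected arrays included 27 of the 38, and Krtap7-1 had the largest of all genes, 5.46. Tests of the Krtap genes are given with and without this array. The call is by limma, a linear model with a moderated test, at a Benjamini-Hochberg adjusted p below 0.05 over all 18194 genes, and differences are log2 values, alopecic minus unaffected, with their standard error (SE). Values by array are given for alopecic replicates 1, 2 and 3 against unaffected replicates 1, 2 and 3.

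**Figure D1:**
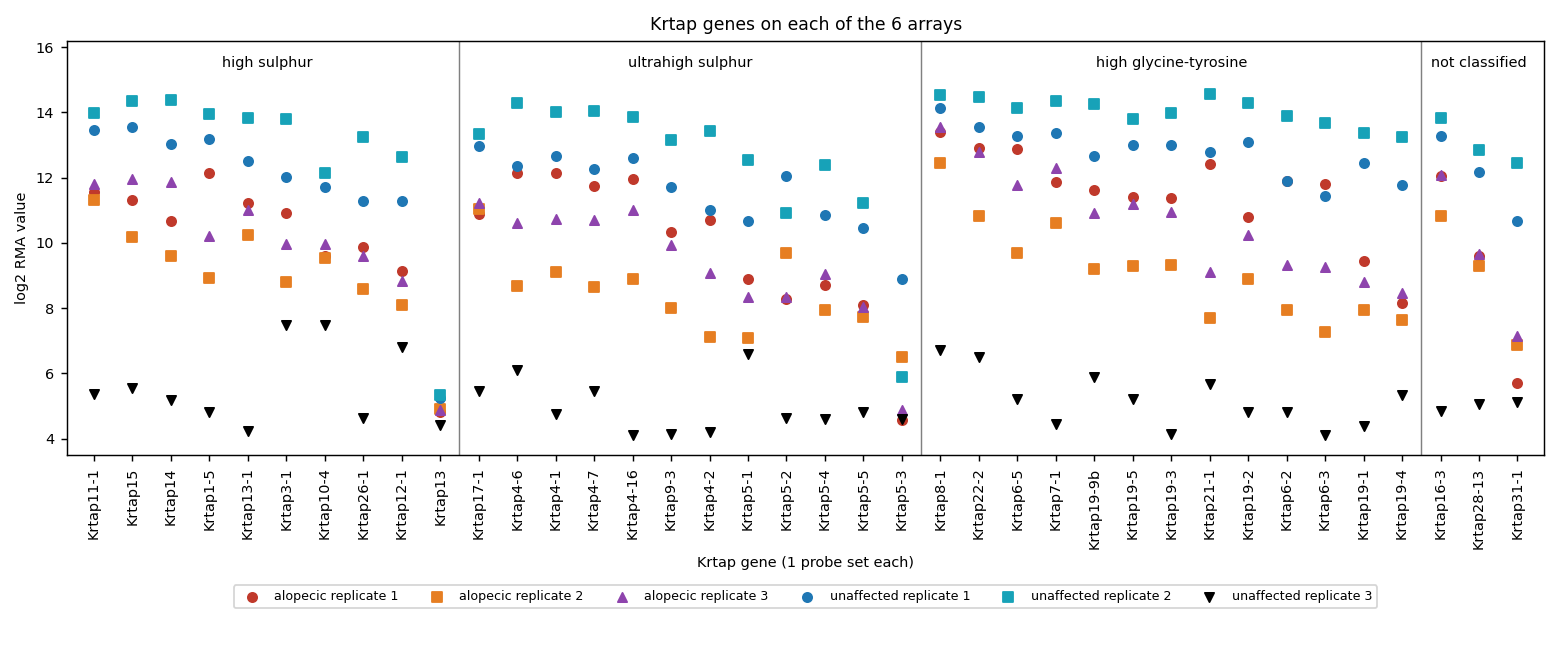
Log2 RMA value (vertical axis) of each of the 38 Krtap genes (horizontal axis, 1 probe set each, by class and then by mean signal) on each of the 6 arrays. The black triangles of unaffected replicate 3 lie lowest for 37 of the 38 genes, and the alopecic arrays lie between them and unaffected replicates 1 and 2 for most.

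With all 6 arrays, 0 of the 38 genes passed the test, where 0.275% of all genes did, and 0 had an unadjusted limma p below 0.05, where 7.15% of all genes did (adjusted p from 0.857 to 0.999). In 27 genes the alopecic mean was lower and in 11 it was higher, and the median difference was -0.32, against -0.01 over all genes tested. The groups overlapped in all 38 genes, while they did not overlap in 13.1% of all genes. The SD was larger in the unaffected group for each of the 38, with a median of 4.62 against 0.95 in the alopecic group (n = 3 each). The differences, which reached -2.84 for Krtap31-1, lay within the spread of the unaffected mice, and the missed threshold does not show that the groups were alike.

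The values without unaffected replicate 3 are a description conditional on that omission. The array was singled out by its low Krtap values. Its median over all probe sets was like that of the other arrays, but normalization between arrays brings this about. The median therefore cannot show whether the array was unusual. Leaving out the lowest control moves the Krtap differences towards lower values in alopecic skin by construction. The directions, p-values and calls so obtained are therefore no support for a difference between the groups, and the shares of all genes are printed beside them for reference only. Each of the 38 genes then had a lower mean in alopecic skin, where 49.5% of all genes did. The median difference was -2.88, that is 7.39-fold lower, against 0.00 over all genes. In 35 of 38 genes every alopecic array lay below unaffected replicates 1 and 2, an order shown by 14.0% of all genes, and 32 had an unadjusted limma p below 0.05 in this direction, against 4.71% of all genes. After adjustment 4 passed, Krtap28-13, Krtap17-1, Krtap5-5 and Krtap10-4, where 0.0275% of all genes, 5 in number, passed as lower; the fifth was Bhlha9, a transcription factor gene. Leaving out any other single array gave 0 calls among the 38, and the sign of the median difference depended on the array. It was 1.39 when unaffected replicate 2 was omitted, 0.55 for unaffected replicate 1 and 0.41 for alopecic replicate 2, but -0.69 for alopecic replicate 1 and -0.45 for alopecic replicate 3. In the opposite direction, the mean of the alopecic arrays exceeded unaffected replicate 3 by a median of 4.92, or 30.3-fold. The alopecic arrays thus stood between the unaffected ones for most of the family. In whole skin, fewer cells that transcribe a gene and less RNA per cell cannot be told apart.

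**Figure D2:**
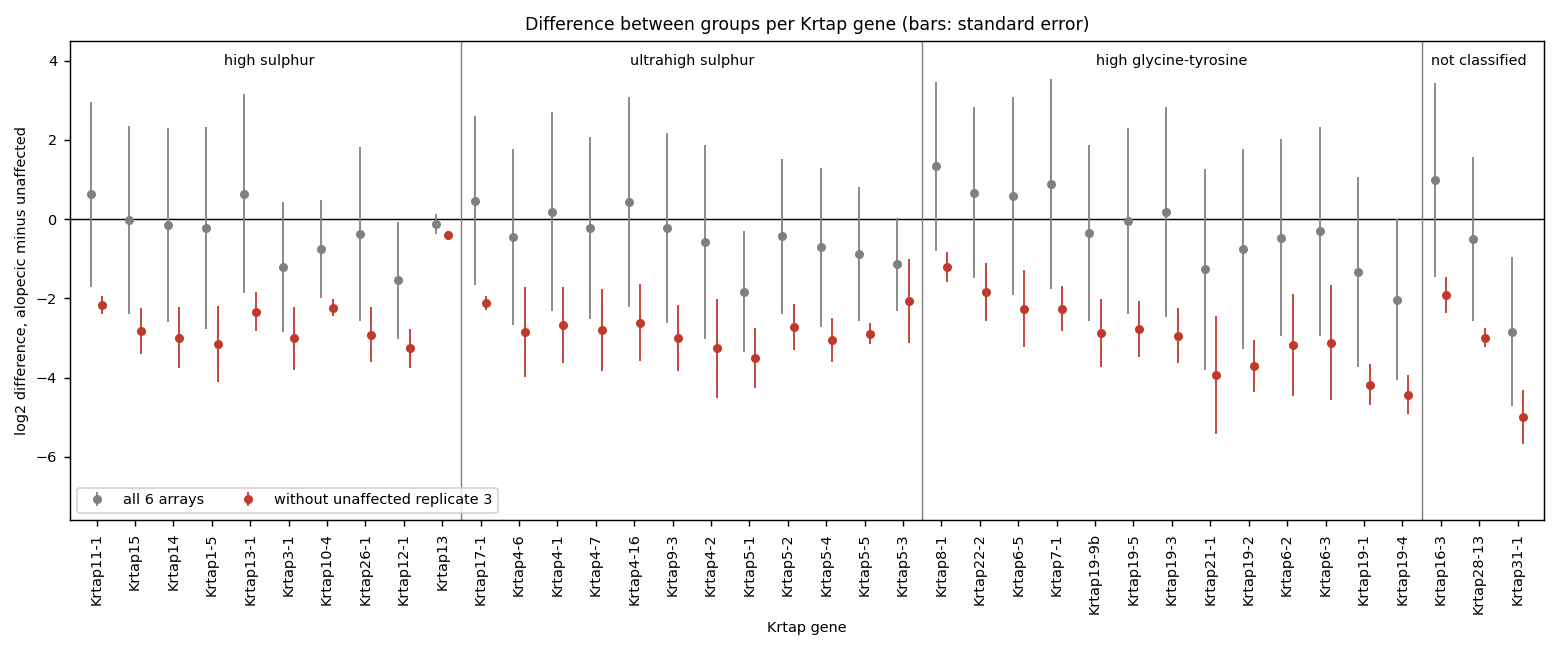
Log2 difference, alopecic minus unaffected (vertical axis), for each Krtap gene (horizontal axis), with bars for the standard error of the fit. Grey points use all 6 arrays and scatter around 0 with long bars; red points leave out unaffected replicate 3 and lie below 0 for each of the 38 genes.

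The high sulphur class of 10 genes had a median difference of -0.19 with all arrays and -2.87 without unaffected replicate 3, and the genes past the threshold numbered 0 and 1. Krtap11-1, a component of the hair cortex, had values of 11.57, 11.32 and 11.80 on alopecic replicates 1 to 3 and 13.47, 14.00 and 5.35 on unaffected replicates 1 to 3. The alopecic arrays were close together and lay below unaffected replicates 1 and 2 and far above the third. Its group means were 11.56 ± 0.24 and 10.94 ± 4.85 (SD, n = 3 each), with a difference of 0.62 (SE 2.33, adjusted p = 0.966) and of -2.17 (SE 0.23, adjusted p = 0.0649) without unaffected replicate 3.

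Krtap14 and Krtap15, neighbours also known as Pmg1 and Pmg2 from their expression in mammary as well as hair epithelium, spread more among the alopecic mice than Krtap11-1. Krtap15 stood at 11.31, 10.17 and 11.94 in the alopecic and 13.56, 14.36 and 5.56 in the unaffected mice. Krtap14 stood at 10.67, 9.60 and 11.86 against 13.02, 14.38 and 5.17. In both, alopecic replicate 2 was the lowest alopecic array and replicate 3 the highest. Their differences were -0.02 (SE 2.37, adjusted p = 0.999) and -0.15 (SE 2.44, adjusted p = 0.993), and -2.82 (SE 0.57, adjusted p = 0.253) and -2.99 (SE 0.76, adjusted p = 0.323) without unaffected replicate 3. Krtap1-5, from a subfamily of the cortex, had a different order, with 12.14, 8.93 and 10.20 on the alopecic and 13.17, 13.97 and 4.80 on the unaffected arrays. Here alopecic replicate 1 was the highest of its group, 3.22 above replicate 2. Its difference was -0.23 (SE 2.56, adjusted p = 0.989), and -3.15 (SE 0.96, adjusted p = 0.405) without unaffected replicate 3.

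Krtap13-1 had the highest difference of the class, 0.64 (SE 2.51, adjusted p = 0.968), and Krtap12-1 the lowest, -1.55 (SE 1.48, adjusted p = 0.876). Krtap13-1 measured 11.23, 10.25 and 11.00 in alopecic and 12.50, 13.84 and 4.22 in unaffected skin. Krtap12-1, whose subfamily is known from the hair cuticle, measured 9.14, 8.11 and 8.84 against 11.28, 12.63 and 6.81. In both, the alopecic arrays lay below unaffected replicates 1 and 2 and above the third, on which Krtap12-1 stayed above the array median and Krtap13-1 did not. Without that array the differences were -2.34 and -3.26. For Krtap12-1 a second probe set read 4.52 on unaffected replicate 3, below the array median, so that this distinction was not shared by its probe sets. Krtap10-4, from another cuticle subfamily and a neighbour of Krtap12-1, had 9.59, 9.54 and 9.97 in alopecic and 11.72, 12.15 and 7.50 in unaffected skin. Its alopecic arrays were close together, and without unaffected replicate 3 it differed by -2.23 (SE 0.21, adjusted p = 0.0489), or 4.70-fold lower, while with all arrays the difference was -0.75 (SE 1.24, adjusted p = 0.924).

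The other high sulphur genes were Krtap3-1, Krtap26-1 and Krtap13. Krtap3-1, of the cortex, read 10.92, 8.81 and 9.96 against 12.03, 13.80 and 7.49, and Krtap26-1, of the cuticle, 9.87, 8.58 and 9.59 against 11.29, 13.25 and 4.62. Krtap13 was dim on every array, between 4.41 and 5.32, below the array medians throughout. Its probe set gives little information on level, although unaffected replicates 1 and 2 were again the highest and replicate 3 the lowest.

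The ultrahigh sulphur class, 12 genes of the Krtap4, Krtap5, Krtap9 and Krtap17 subfamilies, had a median difference of -0.44, and -2.83 without unaffected replicate 3, with 0 and 2 genes past the threshold. Krtap17-1 read 10.88, 11.04 and 11.23 on the alopecic and 12.97, 13.35 and 5.45 on the unaffected arrays. Its alopecic values were the closest together of any member except the dim Krtap13, 11.05 ± 0.17 (SD, n = 3), against 10.59 ± 4.45 in the unaffected group. It had the highest difference of the class with all arrays, 0.46 (SE 2.14, adjusted p = 0.974), and differed by -2.11 (SE 0.18, adjusted p = 0.0332) when unaffected replicate 3 was left out, or 4.30-fold lower.

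The 5 Krtap4 genes, of the cortex and neighbours of Krtap17-1 in one cluster, shared one order of arrays, which Krtap17-1 did not have. Krtap4-6 had 12.14, 8.69 and 10.60 in alopecic and 12.37, 14.30 and 6.10 in unaffected skin. Krtap4-1 had 12.15, 9.09 and 10.74 against 12.66, 14.01 and 4.75, and Krtap4-7 had 11.73, 8.66 and 10.70 against 12.26, 14.05 and 5.45. In each, alopecic replicate 1 lay just below unaffected replicate 1, and alopecic replicate 2 lay more than 3 log2 units lower. The differences were -0.45 (SE 2.21, adjusted p = 0.975), 0.19 (SE 2.51, adjusted p = 0.991) and -0.22 (SE 2.30, adjusted p = 0.988), and without unaffected replicate 3 they were -2.86 (SE 1.13, adjusted p = 0.501), -2.67 (SE 0.96, adjusted p = 0.464) and -2.79 (SE 1.03, adjusted p = 0.469). Krtap4-16 and Krtap4-2 had the same order, with alopecic replicate 1 minus replicate 2 at 3.06 and 3.59. Krtap9-3, another neighbour, had 2.33. Genes of the Krtap4 and Krtap9 subfamilies have near-identical copies, so a probe set can read more than the gene it is named for. The probe sets used for Krtap11-1 and Krtap16-3 are of a type (s_at) that can match several transcripts.

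The 5 Krtap5 genes, of the hair cuticle, were less uniform. Krtap5-5 had 8.10, 7.74 and 8.02 in alopecic and 10.46, 11.24 and 4.80 in unaffected skin, and without unaffected replicate 3 it differed by -2.90 (SE 0.27, adjusted p = 0.0484), or 7.44-fold lower; with all arrays it was -0.88 (SE 1.69, adjusted p = 0.935). Krtap5-1 had the lowest difference of the class, -1.84 (SE 1.53, adjusted p = 0.862), or -3.51 without that array, from 8.90, 7.07 and 8.35 against 10.68, 12.55 and 6.60. Its probe set is of a type (x_at) that can bind other transcripts, and a second probe set of the gene had the same order of arrays. Krtap5-4 read 8.72, 7.95 and 9.05 against 10.86, 12.40 and 4.60, in the common order of the family. Krtap5-2 did not follow it: with 8.28, 9.70 and 8.33 against 12.05, 10.93 and 4.63, alopecic replicate 2 was the highest alopecic array and unaffected replicate 1 exceeded replicate 2. Krtap5-3 did so too, at 4.58, 6.50 and 4.87 against 8.89, 5.87 and 4.59, with most arrays below the array median. Unaffected replicate 2 was the highest array in the other 36 of the 38 genes, a position it had for 18.1% of all genes.

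The high glycine-tyrosine class, 13 genes of the Krtap6, Krtap7, Krtap8, Krtap19, Krtap21 and Krtap22 subfamilies that all lie in one cluster, had a median difference of -0.30, and -2.95 without unaffected replicate 3. In this class 0 genes passed the limma threshold in either fit, and 0 and 9 of 13 had an unadjusted limma p below 0.05. Of all 18194 genes, 1301 with all arrays and 1836 without unaffected replicate 3 had such a p in either direction. Krtap8-1, a cortex protein, read 13.40, 12.46 and 13.54 in alopecic and 14.14, 14.55 and 6.71 in unaffected skin. It had the highest difference of the 38 genes, 1.34 (SE 2.13, adjusted p = 0.920), and its difference without unaffected replicate 3, -1.21 (SE 0.37, adjusted p = 0.405), or 2.31-fold lower, was the nearest to 0 of any member other than the dim Krtap13. Values this close to the top of the array range can be compressed. Krtap22-2 read 12.90, 10.83 and 12.80 against 13.56, 14.47 and 6.51, and Krtap7-1 read 11.87, 10.62 and 12.30 against 13.37, 14.34 and 4.43. In both, alopecic replicates 1 and 3 were close to each other and replicate 2 was lower. Their differences were 0.67 (SE 2.16, adjusted p = 0.962) and 0.88 (SE 2.65, adjusted p = 0.957), and -1.84 (SE 0.73, adjusted p = 0.499) and -2.26 (SE 0.58, adjusted p = 0.325) without unaffected replicate 3.

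The 3 Krtap6 genes separated the alopecic mice most as a subfamily, with alopecic replicate 1 minus replicate 2 between 3.19 and 4.52. Krtap6-5 read 12.89, 9.69 and 11.78 on the alopecic and 13.29, 14.14 and 5.20 on the unaffected arrays, with a difference of 0.58 (SE 2.49, adjusted p = 0.971) and of -2.26 (SE 0.96, adjusted p = 0.523) without unaffected replicate 3. Krtap6-3 read 11.80, 7.28 and 9.25 against 11.45, 13.68 and 4.11, and Krtap6-2 11.91, 7.94 and 9.33 against 11.90, 13.90 and 4.80. In both of these, alopecic replicate 1 reached or passed unaffected replicate 1, so that with Krtap5-3 they made up the 3 genes in which the groups overlapped without unaffected replicate 3. Krtap21-1, at 12.43, 7.69 and 9.10 against 12.79, 14.56 and 5.68, had the largest alopecic SD of the family, 2.44. Alopecic replicate 1 was close to unaffected replicate 1 and replicate 2 was far below. The difference of Krtap21-1 was -1.27 (SE 2.54, adjusted p = 0.937), and -3.93 (SE 1.49, adjusted p = 0.481) without unaffected replicate 3.

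The 6 Krtap19 genes, small cortex proteins, lay below unaffected replicates 1 and 2 on every alopecic array. Krtap19-4 read 8.16, 7.64 and 8.46 in alopecic and 11.79, 13.25 and 5.32 in unaffected skin. It had the lowest difference of the class with all arrays, -2.03 (SE 2.03, adjusted p = 0.881), and without unaffected replicate 3 it differed by -4.43 (SE 0.49, adjusted p = 0.0761), or 21.6-fold, which missed the threshold. Krtap19-1 read 9.45, 7.93 and 8.80 against 12.44, 13.37 and 4.37. A second, dim probe set of Krtap19-1 spanned only 4.82 to 6.88, with unaffected replicate 3 again lowest. Krtap19-2, Krtap19-3, Krtap19-5 and Krtap19-9b had alopecic means of 9.98 ± 0.97, 10.55 ± 1.09, 10.63 ± 1.17 and 10.58 ± 1.25 (SD, n = 3 each). Without unaffected replicate 3 they differed by -3.71, -2.95, -2.78 and -2.87.

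Of the genes outside these classes, Krtap28-13 differed by -2.99 (SE 0.24, adjusted p = 0.0332) without unaffected replicate 3, or 7.96-fold lower, and had a difference of -0.51 (SE 2.07, adjusted p = 0.969) with all arrays. It read 9.60, 9.29 and 9.65 in alopecic and 12.17, 12.84 and 5.07 in unaffected skin, so that its alopecic arrays, like those of Krtap17-1, Krtap5-5 and Krtap10-4, lay close together. The alopecic SDs of these 4 genes were 0.20, 0.17, 0.19 and 0.23, against a median of 0.95 over the family. A small spread within groups favours a call, so this closeness follows from how the 4 were picked. Krtap11-1, which missed the threshold, had an alopecic SD of 0.24. Krtap31-1 read 5.71, 6.87 and 7.16 against 10.67, 12.46 and 5.12. Its difference without unaffected replicate 3, -4.99, or 31.7-fold lower, was the lowest of all 18194 genes, and it missed the threshold (adjusted p = 0.123). Krtap16-3 read 12.04, 10.82 and 12.08 against 13.29, 13.84 and 4.84, with alopecic replicates 1 and 3 close together and replicate 2 lower, and its difference was 0.99 (SE 2.44, adjusted p = 0.949), and -1.91 (SE 0.45, adjusted p = 0.308) without unaffected replicate 3.

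The distance between the alopecic arrays varied from member to member. Alopecic replicate 1 exceeded replicate 2 in 33 of 38 genes, where 43.4% of all genes showed that order, and replicate 2 was the lowest alopecic array in 33, where 26.8% of all genes did. The difference between replicates 1 and 2 ran from -1.92 for Krtap5-3 to 4.74 for Krtap21-1. It had a median of 2.08 in the high glycine-tyrosine, 2.08 in the ultrahigh sulphur and 1.05 in the high sulphur class. By subfamily the medians were 3.97 for Krtap6, 3.07 for Krtap4, 1.98 for Krtap19 and 0.37 for Krtap5. Neighbouring genes could be far apart: in the cluster of Krtap4 this difference ran from -1.16 for Krtap31-1 to 3.59 for Krtap4-2. Each of these values compares single mice and has no replicate check.

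**Figure D3:**
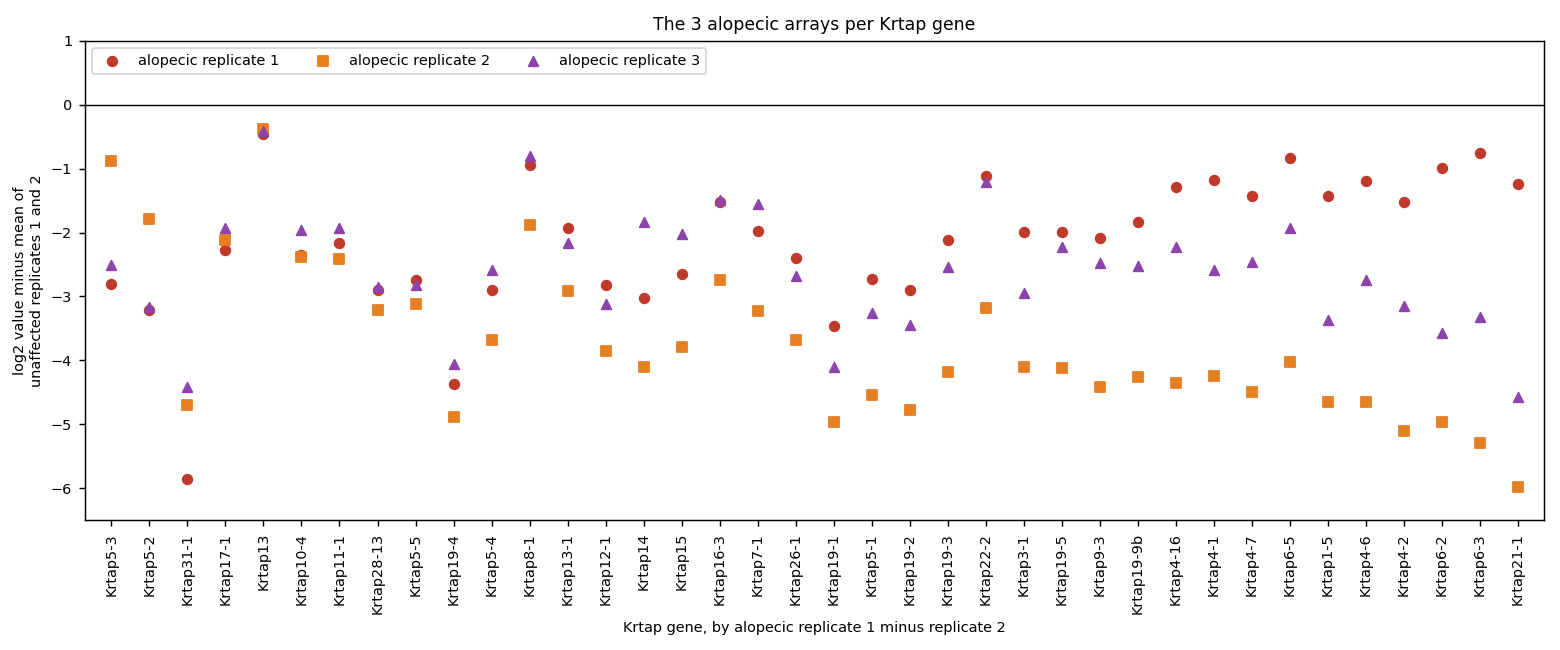
Log2 value of each alopecic array minus the mean of unaffected replicates 1 and 2 (vertical axis) for the 38 Krtap genes, ordered along the horizontal axis by alopecic replicate 1 minus replicate 2. The 3 arrays coincide for genes such as Krtap17-1 and Krtap28-13 and fan out to the right, where the Krtap4 and Krtap6 genes and Krtap21-1 lie.

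Without unaffected replicate 3 the difference was negative in every other Krtap probe set too. That array was the lowest unaffected one in each of these probe sets as well, so the sign is no support for a difference between the groups. Of 5 members with a second probe set of their own, Krtap12-1, Krtap16-3, Krtap19-1, Krtap5-1 and Krtap6-3, the second set differed by -0.78, 0.23, -0.45, -1.67 and -0.89 with all arrays. Without unaffected replicate 3 these became -3.27, -2.97, -1.09, -3.41 and -1.77. A further 6 probe sets name Krtap2-4, Krtap3-2 with Krtap3-3, Krtap4-13, Krtap6-1 or Krtap9-1 together with other genes, and are outside the 38. Their differences without unaffected replicate 3 ran from -3.93 to -1.87. Each of the 6 was lowest on unaffected replicate 3 and highest on unaffected replicate 2.

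The keratins to which these proteins bind were set beside them. The 12 measured hair shaft keratins had a median difference of 0.01, and -1.99 without unaffected replicate 3, with 0 past the limma threshold and, at an unadjusted p below 0.05, 0 and 10 of 12 with and without that array. The counts over all 18194 genes, in either direction, were 1301 and 1836. Krt33a read 12.22, 11.82 and 12.62 in alopecic and 13.87, 14.41 and 5.09 in unaffected skin, and Krt31 10.30, 11.42 and 11.65 against 12.80, 13.55 and 5.92. Their order across the unaffected mice was that of the Krtap genes. Among alopecic mice it was not: replicate 1 exceeded replicate 2 in 6 of 12 keratins, with a median of 0.15, against 1.40 in the 38. Over the 12 keratins replicate 1 minus replicate 2 ran from -2.98 for Krt35 to 2.21 for Krt84. Krt35, a keratin of the early cortex and cuticle chosen after its values were seen, stood at 9.95, 12.94 and 12.72 on the alopecic arrays, with replicate 1 lowest, where the Krtap4 and Krtap6 genes had it highest. The difference between the lists was not tested.

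The 9 other shaft and sheath proteins had median differences of -0.27 and, without unaffected replicate 3, -1.82, and the 8 inner root sheath and companion keratins 1.32 and -1.37. In both lists 0 genes passed the limma threshold in either fit, while 0 and 7 of 9 and 1 and 7 of 8 had an unadjusted p below 0.05 with all arrays and without unaffected replicate 3. The counts over all 18194 genes were 1301 and 1836. Tchh, trichohyalin, and Prr9 differed by -0.53 and -1.11 without unaffected replicate 3, and the sheath keratins Krt25 and Krt27 by -0.44 and -1.28. These were the genes with the highest mean of each list, and such high values can be compressed. Over the lists the differences ran from -4.14 to -0.53 and from -2.93 to -0.44. For the 38 Krtap genes they ran from -4.99 to -0.41, with a median of -2.88.

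Of 10 listed transcription factors of the hair follicle, 0 passed the limma threshold in either fit. Among them were Hoxc13 and Foxn1, which are required for hair keratin expression, and Lef1. The medians over the list were 0.19 and, without unaffected replicate 3, -0.64. An unadjusted limma p below 0.05 was met by 1 and 2 of 10 with and without that array. At that unadjusted p the counts over all 18194 genes were 1301 and 1836. Gata3 and Egr2 differed by -0.29 (SE 0.18, adjusted p = 0.846) and 1.03 (SE 0.29, adjusted p = 0.516), and by -0.32 and 0.71 without unaffected replicate 3. Hoxc13 read 8.82, 10.39 and 10.84 in alopecic and 10.20, 10.98 and 7.07 in unaffected skin, and Lef1 read 7.01, 10.68 and 10.16 against 10.31, 9.79 and 7.11, both chosen after their values were seen. Unaffected replicate 3 was again low, by a median of 2.76 over the list against 7.85 for the Krtap genes. Alopecic replicate 1 minus replicate 2 was -3.67 for Lef1, the lowest of the list, and -1.57 for Hoxc13, the opposite sign to the Krtap median of 1.40. The median over the 10 genes was -1.32, and in 3 of 10 replicate 1 exceeded replicate 2.

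Markers of other cells of the skin moved with the Krtap genes on some arrays. The 11 cell division genes were each lowest on unaffected replicate 3 and each lower on alopecic replicate 1 than on replicate 2. The log2 of their summed linear level ran from 12.90 to 14.45 in alopecic and 10.91 to 13.93 in unaffected skin, and Mki67, a marker of cycling cells, read 10.69, 12.38 and 11.88 against 11.76, 10.41 and 7.90. The 6 melanocyte genes were each lower on alopecic replicate 1 than on replicate 2, and their summed level ran from 9.43 to 12.70 in alopecic and 9.64 to 13.64 in unaffected skin; for example Dct read 8.26, 10.01 and 11.13 against 11.94, 10.70 and 9.00. Both lists were thus low in the same unaffected mouse as the Krtap genes, while among alopecic mice they were lowest in replicate 1, where most Krtap genes exceeded replicate 2. Summed adipocyte levels ran from 12.95 to 13.92 in alopecic and 13.22 to 14.56 in unaffected skin and those of the sebaceous gland from 14.43 to 14.83 in alopecic and 12.98 to 14.70 in unaffected skin, both lowest among the unaffected on replicate 3. Skeletal muscle genes were highest on unaffected replicate 3, with summed levels from 15.70 to 16.70 in alopecic and 14.78 to 17.23 in unaffected skin. With and without unaffected replicate 3, the differences of further named markers were 1.48 and 0.68 for Cdc20, -0.48 and -1.82 for Tyrp1, -0.42 and -0.61 for Fabp4, -0.71 and -2.08 for Adipoq, 0.64 and 0.29 for Scd1, 0.64 and -0.10 for Mgst1, 0.10 and 0.46 for Acta1 and 0.20 and 0.71 for Myh4. Scd1 and Mgst1 did not stand for the sebaceous list, whose medians were 0.64 and, without unaffected replicate 3, -0.87. Its other genes differed by -1.55 and -2.43 (Scd3), -0.54 and -0.87 (Mc5r) and 0.77 and -0.89 (Elovl3). In these 5 lists 0 genes passed the limma threshold with all arrays or without unaffected replicate 3. An unadjusted limma p below 0.05 was met by 1301 of all 18194 genes with all arrays and by 1836 without unaffected replicate 3. In these lists there were 0 with all arrays, and without that array 3 of 5 adipocyte and 3 of 5 sebaceous genes. Their part in the Krtap values was not tested.

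Epidermal keratinocyte genes, which check the tissue label, were above the median of every array for 9 of 10 genes, Krt2 being below it on all 6. Their summed levels ran from 16.14 to 16.68 in alopecic and 16.39 to 16.53 in unaffected skin; Krt10 and Krt14 differed by -0.30 (SE 0.33, adjusted p = 0.891) and 0.48 (SE 0.14, adjusted p = 0.522), and by -0.34 and 0.39 without unaffected replicate 3. Of this list 0 passed and 3 and 3 of 10 had an unadjusted p below 0.05 with all arrays and without unaffected replicate 3. The counts over all 18194 genes were 1301 and 1836. The sum mostly reflects the brightest genes, and on unaffected replicate 3, at 16.39, it lay within the range of the other arrays. Some genes of the list, chosen after their values were seen, did not. Flg, filaggrin of the outer epidermis, read 11.51, 9.95 and 9.58 against 11.04, 9.86 and 7.77, lowest on unaffected replicate 3 and 6.41-fold below what unaffected replicates 1 and 2 averaged. Ivl and Lor, which encode proteins of the cornified envelope, were 5.10-fold and 1.88-fold lower on that array than on the other unaffected arrays, and Krt15 was 14.37 there, its highest value. Their part in the Krtap values was not tested either. Summed cytotoxic T cell levels ran from 11.56 to 13.17 in alopecic and 9.57 to 9.90 in unaffected skin, without overlap. All 8 of these genes were higher in each alopecic mouse than the mean of the unaffected mice, although 0 passed after adjustment in either fit and all 8 had an unadjusted limma p below 0.05 in both, with Cd3g at 1.64 (SE 0.43, adjusted p = 0.472) and Ccl5 at 4.80 (SE 0.58, adjusted p = 0.0599), or 1.90 and 4.68 without unaffected replicate 3. Unaffected replicate 3 was at 9.90 against 9.57 and 9.63 on the other unaffected arrays. No marker in these lists was at 0, since RMA values have no true zero.

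**Figure D4:**
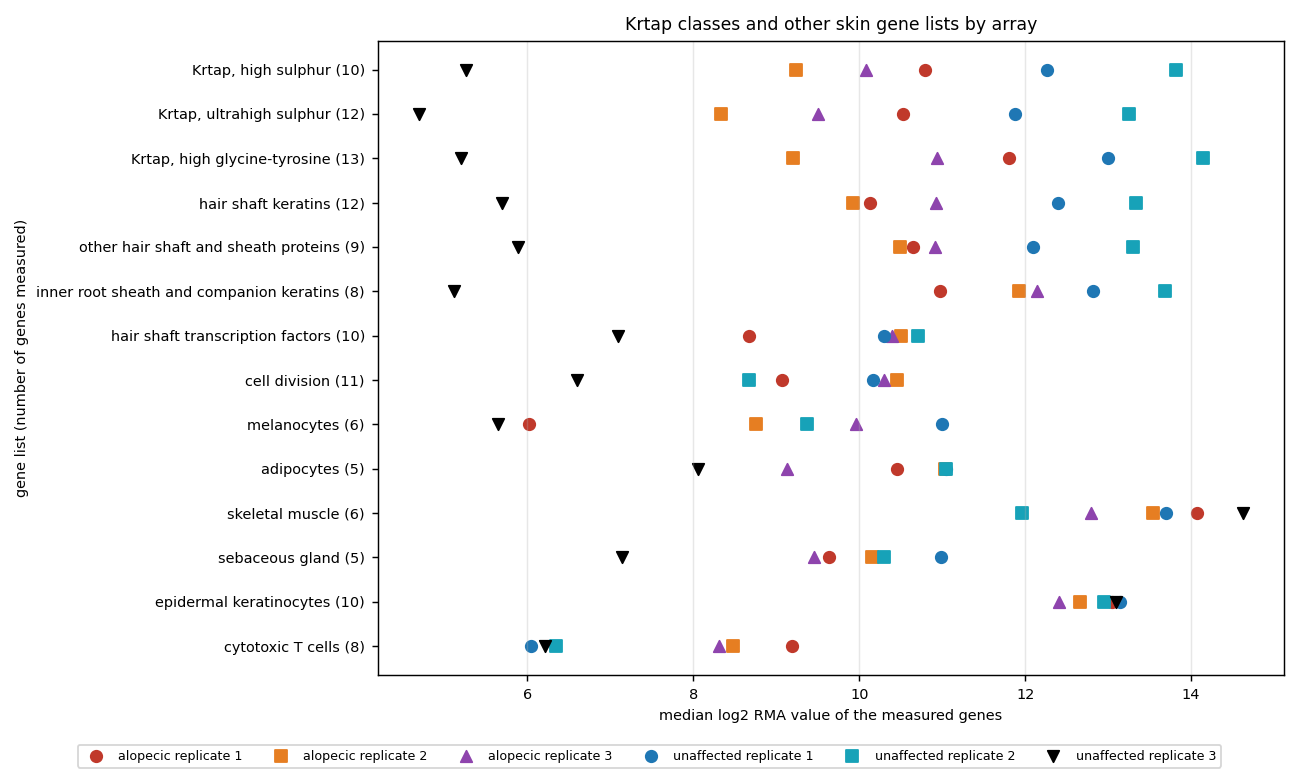
Median log2 RMA value (horizontal axis) of the 3 Krtap classes and of 11 other skin gene lists (vertical axis, with the number of genes measured) on each array. Unaffected replicate 3 lies far to the left for the Krtap classes, hair keratins and sheath keratins, and within the range of the other arrays for epidermal keratinocytes and cytotoxic T cells.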

How the data were processed

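Total RNA of skin from 6 C3H/HeJ mice was measured on 1 array each after labelling with a 3' IVT kit, per the labels' protocols. The authors deposited log2 values for 45101 probe sets, made with RMA per the submitters' processing notes; no version was named. These values are normalized between arrays and compress dim signals. They were used as deposited. Symbols came from the platform's annotation, updated by gene identifier through RefSeq (GRCm38.p6) for 34754 of 34958 probe sets with 1 symbol. Probe sets with several symbols were left out, and the one with the highest mean over 6 arrays stood for each of 18194 genes, with no filter on dim genes. Groups were compared with limma 3.58.1 in R 4.3.3 (lmFit, eBayes, two-sided, Benjamini-Hochberg over all genes, threshold 0.05), a fit checked on simulated data. Precision is limited by 3 arrays per group. The labels state no pairing of the mice, so the replicate number was not a term of the fit. Deviations from group means correlated across genes at -0.13, -0.20 and -0.33 for replicates 1, 2 and 3. With 3 arrays per group, of which 1 unaffected array stood apart, these correlations cannot show whether mice were paired.

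Members and lists were chosen with earlier results of these data known, and support nothing by their choice. The 11 other lists held 100 genes, 90 of them measured. All members may be named; values on every array were to be given for the 4 with the highest mean in each class, those with the largest and smallest difference in each class, and those past the threshold with all arrays or with 1 left out. Of each other list the 2 genes with the highest mean were named, as none passed. Values on every array for other members, and for Krt35, Hoxc13, Lef1 and Flg, were added after seeing them. So were the values given for Krt75, Scd3, Mc5r and Elovl3. Alternatives tried were the mean over probe sets, a filter on dim genes, quantile normalization, trend and robust moderation, array weights, the replicate number as a block and each array left out. Group sums are log2 of the sum of linear values.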

Additional observations from a re-analysis of the deposited data

How the results depend on the processing

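The Krtap genes past the threshold numbered 0 under the mean over probe sets, the filter on dim genes (36 of 38 kept), quantile normalization, trend and robust moderation, array weights and the replicate block, and 0 to 4 with 1 array left out, 4 only without unaffected replicate 3. All genes past the threshold numbered 50, 139 with array weights, 0 with the replicate block (adjusted p at least 0.0825) and 4 to 39 with 1 array left out. As the fit of all arrays called 0 Krtap genes and the replicate block called 0 genes in all, the block could not change a Krtap call. The median over the Krtap genes ran from -2.88 to 1.39 with 1 array left out and was -2.15 with array weights; the class medians ran from -2.87 to 1.41 (high sulphur), -2.83 to 1.30 (ultrahigh sulphur) and -2.95 to 1.52 (high glycine-tyrosine). In each case the lowest value was without unaffected replicate 3 and the highest without unaffected replicate 2. With array weights the sign turned for Krtap11-1 (-1.45), Krtap13-1 (-1.48), Krtap17-1 (-1.44), Krtap22-2 (-1.10), Krtap4-1 (-2.05), Krtap6-5 (-1.68), Krtap7-1 (-1.28) and Krtap8-1 (-0.56). Array weights give less weight to arrays that depart from the fit. Like the omission of unaffected replicate 3, they are therefore no support for a difference between the groups. With 1 array left out, the differences of named genes whose sign turned ran from -3.15 to 1.43 for Krtap1-5, -2.23 to 0.0921 for Krtap10-4, -2.17 to 2.15 for Krtap11-1, -2.34 to 2.47 for Krtap13-1, -2.99 to 1.61 for Krtap14, -2.82 to 1.58 for Krtap15, -2.11 to 1.84 for Krtap17-1, -1.84 to 2.15 for Krtap22-2, -2.99 to 0.89 for Krtap28-13, -2.67 to 1.96 for Krtap4-1, -2.86 to 1.24 for Krtap4-6, -2.79 to 1.51 for Krtap4-7, -2.90 to 0.32 for Krtap5-5, -2.26 to 2.21 for Krtap6-5, -2.26 to 2.69 for Krtap7-1 and -1.21 to 2.71 for Krtap8-1. Krtap12-1, Krtap19-4 and Krtap5-1 kept a negative difference under every alternative run, and under the other alternatives the 19 named genes kept their sign and stayed short of the threshold. Apart from the omitted array itself, the cause of these changes was not tested. Dim signal limits Krtap13, Krtap5-3 and most values of unaffected replicate 3.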
